A study of Mus musculus with 8 samples.

Results

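Iron storage and transport genes were followed in the cerebellum of old and young mice. The group holds 10 of the 17700 genes listed in the count tables, taken by symbol. They are the ferritin genes Ftl1 and Fth1, the uptake genes Tfrc, Trf and Slc11a2, the export genes Slc40a1 and Cp, the haem-degrading Hmox1, and the iron sensors Aco1 and Ireb2. They were picked by function with the old and young counts already known, so the differences between old and young mice are given for them as a description and carry no test. The old group held 4 C57BL/6JN mice of 83, 83, 93 and 102 weeks, and the young group held 4 C57BL/6JN mice of 19, 19, 19 and 22 weeks. Each age had 2 females and 2 males, and no treatment is given beyond age. Each library was made from total RNA of frozen cerebellum with ribosomal RNA removed. Every sample is labelled cerebellum, whereas the design text of the series names liver and other ages. All 8 granule neuron markers and all 8 Purkinje cell markers looked up had counts in every library, so the tissue label was kept.

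Cells take up most of their iron bound to transferrin, which the transferrin receptor brings into endosomes, and the divalent metal transporter moves the iron from there to the cytosol. Ferritin, a hollow shell of heavy and light chains, stores what is not used, and ferroportin passes iron out of the cell with the help of a copper ferroxidase that oxidises it. In the brain, oligodendrocytes and the choroid plexus make transferrin, astrocytes carry a membrane-bound form of the ferroxidase ceruloplasmin, and microglia and oligodendrocytes hold much of the ferritin. The iron regulatory proteins bind hairpins called iron-responsive elements. Bound near the start of a message they block its translation, and bound behind the coding part of Tfrc they protect the message from decay, so counts of ferritin RNA do not report how much ferritin is made.

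The hairpins are shown because they are where the iron sensors meet the messages of the ferritins, ferroportin and the transferrin receptor. Annotated transcripts were searched, on the transcribed strand only, for CNNNNNCAGTGN followed by 5 bases that pair with the 5 before the loop, with Watson-Crick or G-U pairs and any base but G at the end of the loop. The loop of 6 bases is in capitals, written as DNA from 5′ to 3′ with 6 bases on either side of the hairpin.
Fth1 in the 5′ UTR: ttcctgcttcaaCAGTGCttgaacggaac
Ftl1 in the 5′ UTR: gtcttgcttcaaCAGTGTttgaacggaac
Slc40a1 in the 5′ UTR: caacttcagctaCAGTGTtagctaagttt
Tfrc in the 3′ UTR, match 1: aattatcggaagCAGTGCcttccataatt
Tfrc in the 3′ UTR, match 2: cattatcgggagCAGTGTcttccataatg
Tfrc in the 3′ UTR, match 3: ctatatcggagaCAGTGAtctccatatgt
Tfrc in the 3′ UTR, match 4: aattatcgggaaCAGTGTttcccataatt

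In GRCm38 these matches lie at chr19:9982732-9982760 on the plus strand for Fth1, chr7:45459779-45459807 on the minus strand for Ftl1 and chr1:45925465-45925493 on the minus strand for Slc40a1. The Tfrc matches lie on the plus strand at chr16:32631219-32631247, chr16:32631598-32631626, chr16:32631663-32631691 and chr16:32631710-32631738. A match to these letters was found in the 5′ UTR of 0.109% of 21181 genes and in the 3′ UTR of 0.504% of 21824 genes, over UTRs of all lengths. The other 6 members had no match to these letters in their UTRs. Among them is Slc11a2, which is known to have transcript forms with an iron-responsive element in the 3′ UTR, so the search does not list every element.

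The 8 libraries held 6079485 to 7236720 gene counts, so that 3 counts were worth 0.421 to 0.511 CPM, the count scaled to the TMM-adjusted library total. All 10 members passed the filter on low counts, with 11 counts of Hmox1 in young 3 as the lowest value of any member. Libraries differed within each age in transcripts of other tissues. The summed level of 7 liver genes was 9.63, 84.2, 23.6 and 2.84 CPM in old 1 to old 4 and 4.81, 1.25, 0.682 and 21.2 CPM in young 1 to young 4. The summed level of 10 choroid plexus genes was 521, 1048, 53.1 and 476 CPM in old 1 to old 4 and 466, 311, 63.6 and 40.4 CPM in young 1 to young 4. Liver secretes transferrin and ceruloplasmin and the choroid plexus makes transferrin, so values of Trf and Cp are also given without old 2, old 3 and young 4, and without old 3, young 3 and young 4. The first set holds the libraries highest in liver genes. The second holds those lowest in choroid plexus genes, so libraries rich in choroid plexus transcripts stay in. Without the second set no young female is left, and the term for sex rests on the old mice. Where nothing else is said, SE are those of the fit and SD are over 4 mice.

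The heavy chain Fth1 was the most abundant member per length of exon, and its values lay above those of every other member in all 8 libraries. Fth1 had 215.6 ± 28.7 CPM per kilobase of exon in old and 215.7 ± 23.4 in young mice (SD, n = 4 each). The light chain Ftl1 came next in the mean over all libraries, at 34.4 ± 4.58 CPM per kilobase in old and 21.6 ± 3.45 in young mice. It was followed by Trf, at 21.5 ± 1.42 and 27.3 ± 3.03, Tfrc, at 18.6 ± 4.57 and 22.6 ± 3.05, and Ireb2, at 19.2 ± 1.84 and 18.6 ± 2.55 CPM per kilobase, each with old mice before young. These 4 neighbours of the order overlapped in their library values. Slc11a2 stood apart from both its neighbours, at 6.63 ± 0.54 CPM per kilobase in old and 6.22 ± 0.72 in young mice. Aco1 at 4.46 ± 0.59 and 4.44 ± 0.067, Cp at 3.15 ± 1.19 and 1.96 ± 0.64, Hmox1 at 2.41 ± 0.56 and 1.33 ± 0.39 and Slc40a1 at 0.996 ± 0.21 and 0.90 ± 0.21 CPM per kilobase closed the order, and each overlapped with the next. With the longest transcript as the length in place of all exons, Fth1, Ftl1 and Trf kept ranks 1 to 3, Ireb2 stood before Tfrc, Cp before Aco1 and Slc40a1 before Hmox1.

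**Figure D1:**
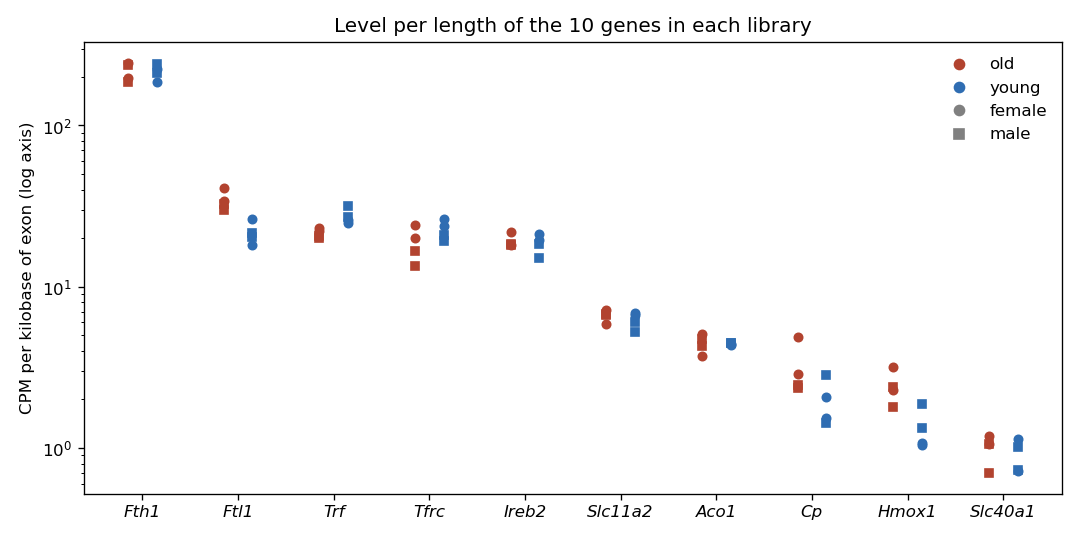
Level of each member per length in each library, as CPM per kilobase of annotated exon on a log axis, old left of young within each gene and circles for females. Fth1 lies between 185.6 and 244.4 CPM per kilobase, above every value of the other members, and the lowest gene, Slc40a1, lies between 0.699 and 1.18.

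Reads of Ftl1 and Trf can be shared with other annotated genes. Of 1427 windows of 50 bases in annotated Ftl1 transcripts, 50.9% occur word for word in transcripts of other annotated genes, and 47.3% occur in the annotated gene Ftl1-ps1. For Fth1 the share was 1.59% of 3654 windows. Ftl1-ps1 itself had 0 or 1 count in every library. The treatment of reads that map to several places is not stated, which leaves the level of Ftl1 uncertain. For Trf, 58.5% of 3441 windows also belong to Gm20425, an annotated gene that overlaps it on the same strand, so its level is uncertain too. No other member shared more than 0.237% of its windows.

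Between old and young mice, the ferritin light chain Ftl1, haem oxygenase Hmox1 and the ferroxidase Cp had the highest ratios of old to young, transferrin Trf and its receptor Tfrc had lower levels in old mice, and the other 5 members had log2 differences within 0.16 of 0. In edgeR's quasi-likelihood fit of age and sex, with p-values adjusted by Benjamini-Hochberg, 0 of the 10 members passed 0.05, where 0.120% of 14191 genes did, 0.0987% higher and 0.0211% lower in old mice. At an unadjusted p under 0.05 there were 5 of 10 members, where 11.0% of all genes passed. DESeq2 called 1 member, Ftl1, where it called 0.881% of genes, and limma-voom called 0 of 10, where it called 0.00705% of genes. The old and young values did not overlap for Ftl1, which was higher in old mice as were 3.15% of all genes without overlap, and for Trf, which was lower in old mice as were 3.42%, or 6.57% in either direction. Since the members were chosen with this contrast known, nothing is read from these counts. The median log2 fold change of the members was 0.07, with 8 of 10 positive, beside -0.01 over all tested genes, of which 48.6% were positive. Of these 8, Fth1, Slc40a1, Aco1 and Ireb2 lay so near 0 that their sign changed under some alternatives. The RNA is from whole tissue, so fewer cells of a type and less RNA per cell cannot be told apart.

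**Figure D2:**
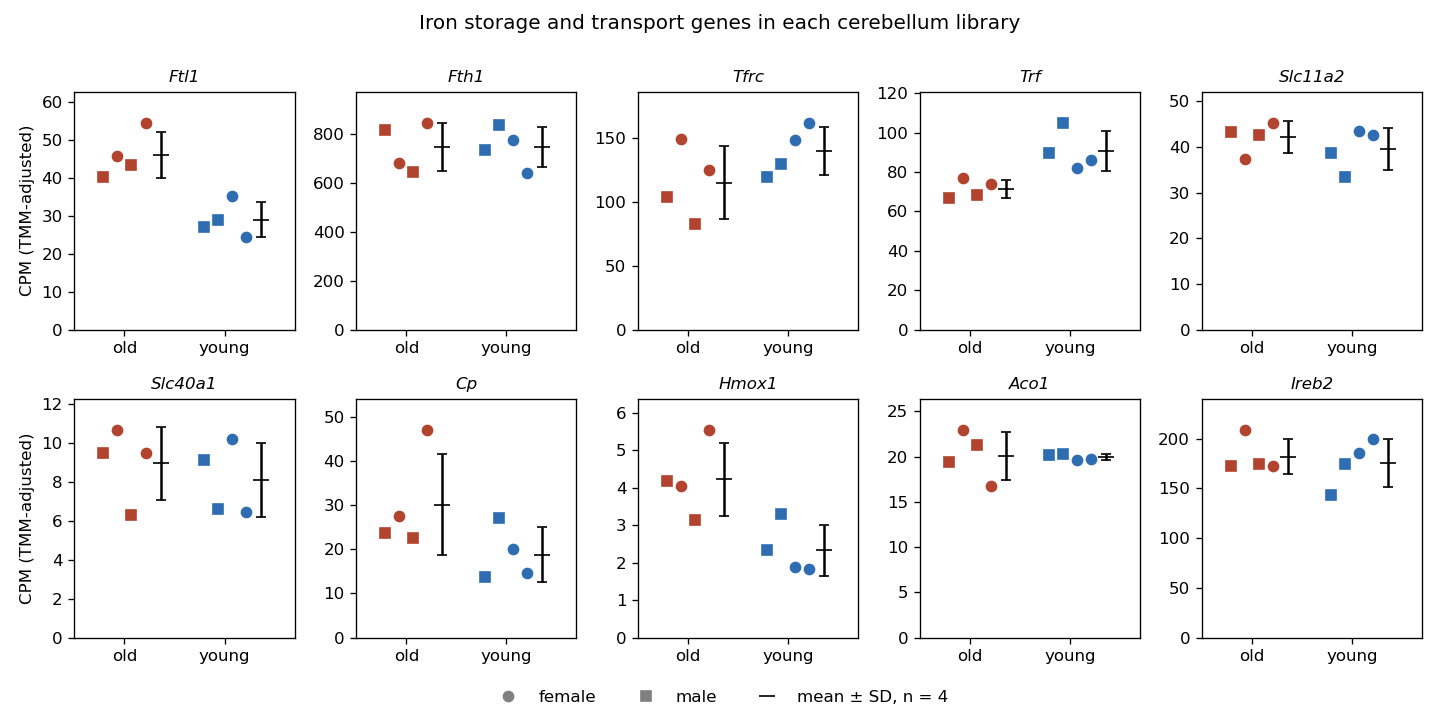
CPM of each member in each library, old left of young, with circles for females and squares for males, and the mean and SD of the 4 mice of each age. The old and young values are apart for Ftl1 and Trf and overlap for the other 8 genes.

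Of the ferritin genes, the light chain had values that did not overlap between the ages and the heavy chain had nearly equal means. Ftl1, at chr7:45457944-45459884, encodes the chain that supports iron core formation inside ferritin. It had 40.3, 45.8, 43.6 and 54.6 CPM in old 1 to old 4, and 27.1, 29.0, 35.3 and 24.4 CPM in young 1 to young 4. The lowest old value lay above the highest young one. The oldest mouse, old 4 at 102 weeks, had the highest value, and the next oldest, old 1 at 93 weeks, had the lowest among old mice. The means were 46.0 ± 6.13 CPM in old and 29.0 ± 4.62 CPM in young mice, which is 1.59-fold or 0.67 ± 0.12 on the log2 scale. Without any 1 library the log2 fold change lay between 0.55 and 0.76. It was 0.57 ± 0.14 without old 2, old 3 and young 4, and 0.52 ± 0.19 without old 3, young 3 and young 4.

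Fth1, at chr19:9980598-9985098, encodes the chain whose ferroxidase site oxidises iron on entry into ferritin. It had 817, 682, 645 and 848 CPM in old 1 to old 4, and 736, 837, 777 and 644 CPM in young 1 to young 4. The groups overlapped over nearly their whole range, and the means were 748 ± 99.4 CPM in old and 748 ± 81.1 CPM in young mice, with a log2 fold change of 0.00 ± 0.11. The ratio of Fth1 to Ftl1 counts within a library, which does not depend on depth, took the values 20.3, 14.9, 14.8 and 15.5 in the old mice, numbered 1 to 4, and the values 27.1, 28.8, 22.0 and 26.4 in the young mice. Every old ratio lay below every young one. These ratios are of counts and are not corrected for length or for the windows that Ftl1 shares with its copies.

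The uptake genes Trf and Tfrc had lower levels in old mice, and Slc11a2 differed little. Trf, at chr9:103204001-103230444, encodes transferrin, the iron carrier. It had 66.9, 76.9, 68.2 and 74.0 CPM in old 1 to old 4, and 89.6, 105, 82.0 and 86.1 CPM in young 1 to young 4. All 4 old values lay below all 4 young ones, with means of 71.5 ± 4.72 and 90.7 ± 10.1 CPM and a log2 fold change of -0.34 ± 0.09. Old 2 was highest among old mice in liver genes, in choroid plexus genes and in Trf. Young 4 was highest among young mice in liver genes and lowest in choroid plexus genes. It had less Trf than young 1 and young 2 and more than young 3, which was lowest in liver genes. The part of liver and choroid plexus transcripts in Trf was not tested. The log2 fold change of Trf was -0.37 ± 0.13 without old 2, old 3 and young 4, and -0.54 ± 0.16 without old 3, young 3 and young 4.

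Tfrc, at chr16:32608920-32632794, encodes transferrin receptor 1, whose message carries the 3′ hairpins printed above. It had 104, 149, 82.5 and 125 CPM in old 1 to old 4, and 119, 129, 148 and 162 CPM in young 1 to young 4. The ages overlapped, with old 1 and old 3, both males, below every young value. The means were 115 ± 28.3 CPM in old and 140 ± 18.9 CPM in young mice, with a log2 fold change of -0.30 ± 0.10. Leaving out 1 library moved it between -0.38 and -0.22.

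Slc11a2, at chr15:100387898-100425072, encodes the divalent metal transporter DMT1, which carries ferrous iron out of endosomes. It had 43.3, 37.3, 42.6 and 45.3 CPM in old 1 to old 4, and 38.6, 33.4, 43.5 and 42.5 CPM in young 1 to young 4. The groups overlapped, and the log2 fold change was 0.09 ± 0.11.

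Of the export genes, Cp was higher in old mice with a wide spread, and Slc40a1 overlapped between the ages. Cp, at chr3:19957054-20009145, encodes ceruloplasmin. It had 23.6, 27.5, 22.5 and 46.9 CPM in old 1 to old 4, and 13.6, 27.0, 19.9 and 14.6 CPM in young 1 to young 4. Old 4 lay well above the other old mice, and young 2 lay within the old range. The log2 fold change was 0.66 ± 0.29, from means of 30.1 ± 11.4 CPM in old and 18.8 ± 6.12 CPM in young mice. It was 0.39 ± 0.23 without old 4 and 0.99 ± 0.21 without young 2, the lowest and highest of the fits without 1 library. Without old 2, old 3 and young 4 it was 0.68 ± 0.33, and without old 3, young 3 and young 4 it was 0.22 ± 0.53.

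Slc40a1, at chr1:45908068-45926523, encodes ferroportin, the iron exporter of mammalian cells. It had 9.47, 10.6, 6.29 and 9.47 CPM in old 1 to old 4, and 9.15, 6.59, 10.2 and 6.45 CPM in young 1 to young 4. Neither age stood apart, and the log2 fold change of 0.16 ± 0.21 was smaller than its SE. Its lowest count was 40 in a library, so its values carry more counting error than those of the abundant members.

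Hmox1, at chr8:75093621-75100589, encodes haem oxygenase 1, the inducible enzyme that breaks haem down and frees its iron. It had 26, 28, 20 and 35 counts in old 1 to old 4, and 15, 21, 11 and 13 counts in young 1 to young 4. In CPM these were 4.17, 4.03, 3.14 and 5.52 in old mice and 2.33, 3.29, 1.87 and 1.82 in young mice. Young 2 lay above old 3, and the other 3 young values lay below every old one. The means were 4.22 ± 0.98 CPM in old and 2.33 ± 0.68 CPM in young mice, which is 1.81-fold or 0.85 ± 0.29 on the log2 scale, the highest of the members. It was 0.67 ± 0.30 without old 4 and 1.09 ± 0.31 without young 2. Without old 2, old 3 and young 4 it was 0.94 ± 0.36, and without old 3, young 3 and young 4 it was 0.57 ± 0.48.

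The iron sensors had log2 differences within their SE. Aco1, at chr4:40143081-40198338, encodes iron regulatory protein 1, which is a cytosolic aconitase when it holds an iron-sulphur cluster and binds RNA when it does not. It had 19.4, 22.9, 21.2 and 16.7 CPM in old 1 to old 4, and 20.2, 20.2, 19.6 and 19.8 CPM in young 1 to young 4. The young values lay inside the old range, and the log2 fold change was 0.01 ± 0.12. Ireb2, at chr9:54863789-54912530, encodes iron regulatory protein 2, which is degraded when iron is plentiful. It had 172, 208, 175 and 173 CPM in old 1 to old 4, and 143, 175, 186 and 200.1 CPM in young 1 to young 4. Old 2 lay above the other 3 old mice, the groups overlapped, and the log2 fold change was 0.05 ± 0.09.

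The members with a 5′ hairpin thus had log2 fold changes of 0.67 for Ftl1, 0.16 for Slc40a1 and 0.00 for Fth1, and Tfrc, with the 3′ hairpins, had -0.30. The part of the hairpins in these RNA levels was not tested.

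The comparison of females with males is one the choice of members did not use, and it was tested. In the same fit 0 of 10 members passed an adjusted p of 0.05 by edgeR, where 0.0423% of 14191 genes did, and DESeq2 and limma-voom also called 0 of 10, where they called 0.0634% and 0.0352% of genes. At an unadjusted p under 0.05 there were 2 members, Tfrc and Ireb2, where 4.76% of all genes passed. Tfrc had 149 and 125 CPM in the old females and 148 and 162 CPM in the young females, and 104 and 82.5 CPM in the old males and 119 and 129 CPM in the young males. Within each age both females lay above both males, and the means were 146 ± 15.4 CPM in 4 females and 109 ± 20.4 CPM in 4 males. The log2 fold change of Tfrc, female minus male, was 0.43 ± 0.10, with an unadjusted p of 0.00090 and an adjusted p of 0.918 by edgeR. Ireb2 had 192 ± 15.6 CPM in females and 166 ± 15.4 CPM in males (SD, n = 4 each), a log2 fold change of 0.21 ± 0.09 with an adjusted p of 0.930 by edgeR. The other 8 members lay between -0.04 for Fth1 and 0.27 for Cp.

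Whether the difference between old and young mice differed between the sexes was tested with the 4 cells of 2 animals. By edgeR 0 of 10 members passed an adjusted p of 0.05, where 0.00% of all genes did, and DESeq2 and limma-voom also called 0 of 10, where they called 0.00705% and 0.00% of genes. With so few calls over all genes, these counts say nothing particular of the members. At an unadjusted p under 0.05 there was 1 member, Trf, where 2.30% of all genes passed. Trf was lower in old mice in both sexes. Old females had 76.9 and 74.0 CPM and young females 82.0 and 86.1, while old males had 66.9 and 68.2 CPM and young males 89.6 and 105. The decrease was smaller in females than in males by 0.37 ± 0.17 on the log2 scale. By edgeR its unadjusted p was 0.0492 and its adjusted p was 0.99994.

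**Figure D3:**
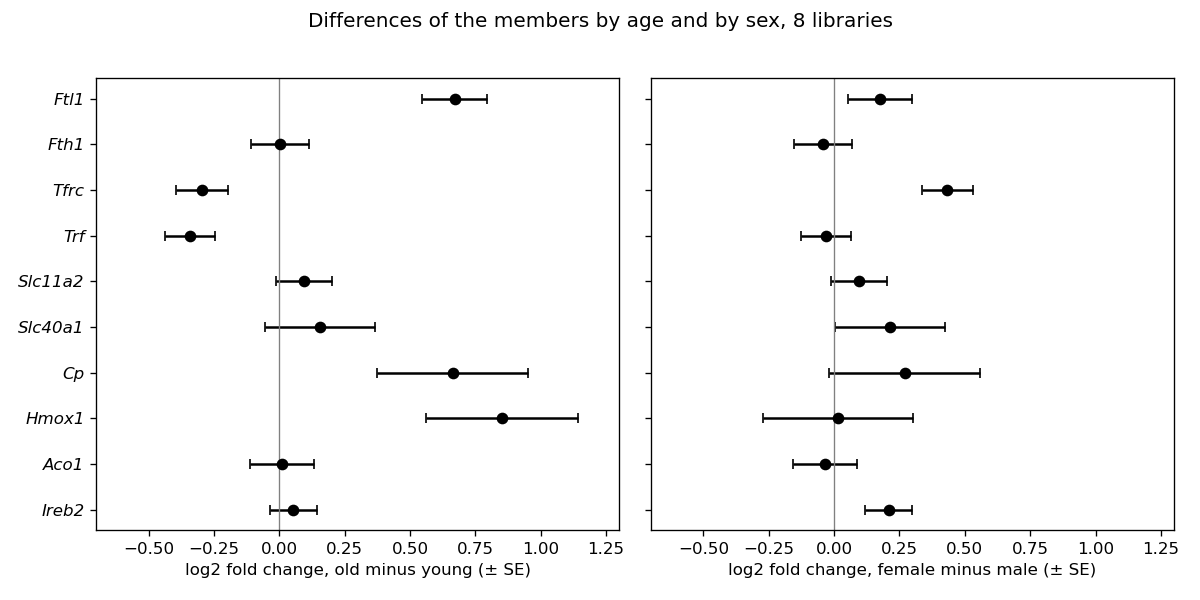
Log2 fold changes of the members with their SE from the fit of age and sex over 8 libraries, old minus young on the left and female minus male on the right. Hmox1, Ftl1 and Cp lie farthest above 0 for age, Trf and Tfrc lie below 0, and Tfrc lies farthest from 0 for sex at 0.43.

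Markers of cells that carry these genes also differed between libraries, and their part in the differences above was not tested. A marker was counted as higher in old mice when its fitted log2 fold change was above 0, with no threshold. Of all tested genes 48.6% were above 0. All 10 microglia markers were higher in old mice, with summed levels of 261, 247, 218 and 423 CPM in old 1 to old 4 and 150.3, 187, 183 and 138 CPM in young 1 to young 4, and none was at 0. The microglia sums did not overlap between the ages. Old 4 had the highest sums of microglia, endothelial, perivascular macrophage and erythroid markers, and the highest values of Ftl1, Fth1, Slc11a2, Cp and Hmox1. Of 10 oligodendrocyte markers 3 were higher in old mice, with sums of 4073 to 5380 CPM in old and 3763 to 6272 CPM in young mice and none at 0. Young 2 had the highest value of Trf, a gene of these cells, and the highest of these sums. Young 4, with the lowest sum, had more Trf than every old mouse. Old 1, with a sum of 5030 CPM, had the least Trf. Whether Trf follows these sums was not tested. The choroid plexus list was higher in old mice for 10 of 10 genes, with none at 0, and the liver list for all 5 genes that could be tested of 7, with Alb, Apob, Apoa2, Fga, Fgb and Ahsg at 0 in some libraries. Of 10 endothelial markers 7 were higher in old mice, with sums of 275 to 370 CPM in old and 245 to 312 CPM in young mice and none at 0. The 4 tested of 6 perivascular macrophage markers were higher in old mice, with sums of 11.2 to 24.8 CPM in old and 8.14 to 16.9 CPM in young mice and with Ms4a7 and Pf4 at 0 in some libraries. Of 8 astroglia markers 2 were higher in old mice, with sums of 4696 to 5888 CPM in old and 4692 to 6605 CPM in young mice and none at 0. Of 8 granule neuron markers 1 was higher in old mice. Their sums were 3767 to 5203 CPM in old and 4179 to 6360 CPM in young mice. Of 8 Purkinje cell markers 1 was higher in old mice. Their sums were 5236 to 7101 CPM in old and 6000 to 7672 CPM in young mice.

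**Figure D4:**
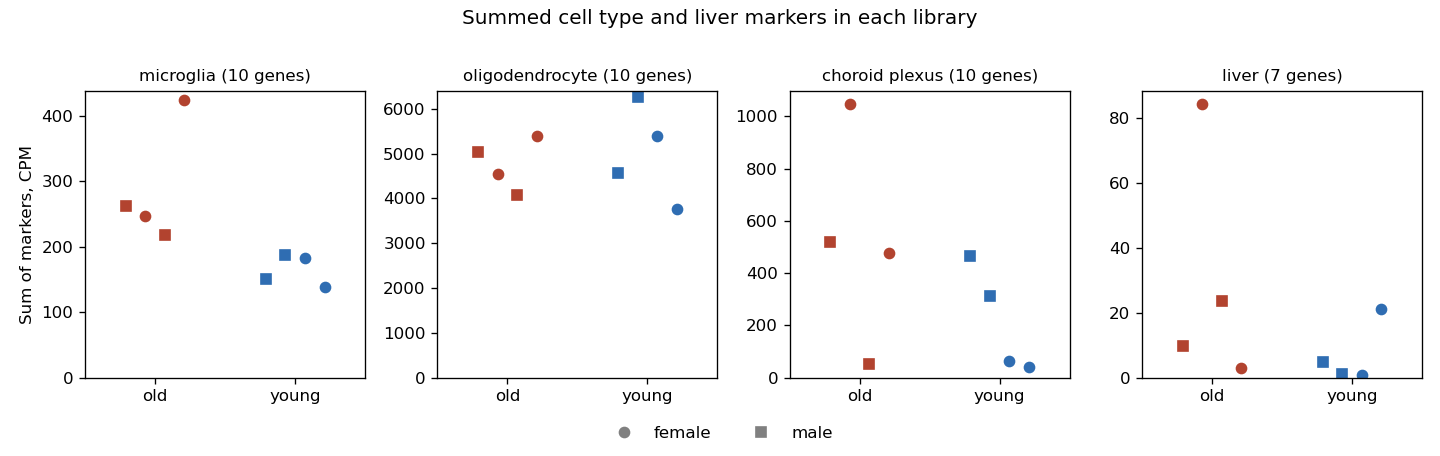
Summed CPM of the microglia, oligodendrocyte, choroid plexus and liver markers in each library, old left of young, with circles for females. The microglia sums are 218 CPM or more in old and 187 CPM or less in young mice, while the other sums overlap between the ages.

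The rest of the pathway was looked at through 73 other iron genes, of which 66 could be tested. By edgeR 0 of 66 passed an adjusted p of 0.05, DESeq2 and limma-voom also called 0, and at an unadjusted p under 0.05 there were 6 higher and 2 lower in old mice, where 5.25% and 5.76% of all genes were. Of the 66, 39 lay above 0 and 27 below, and the median log2 fold change was 0.03. The medians by role were 0.13 for 12 uptake genes, 0.12 for 18 genes of haem synthesis, breakdown and transport, 0.02 for 10 regulators, -0.01 for 22 mitochondrial iron and iron-sulphur genes and -0.04 for 3 storage genes, and Heph, the only export gene tested, had 0.03 ± 0.22. Ncoa4, which directs ferritin to lysosomes, had 0.07 ± 0.11, and Fbxl5, which marks iron regulatory protein 2 for degradation, had 0.02 ± 0.09.

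The 8 other iron genes with the smallest p were Hp, Slc25a37, Hspa9, Alas2, Alas1, Steap4, Hfe and Keap1, and their adjusted p by edgeR lay between 0.183 and 0.404. Hp, which encodes the haemoglobin-binding plasma protein haptoglobin, had 2.73, 4.03, 2.52 and 2.68 CPM in old 1 to old 4 and 0.775, 0.941, 0.852 and 1.96 CPM in young 1 to young 4. In counts these were 17, 28, 16 and 17 in old mice and 5, 6, 5 and 14 in young mice. Every old library held 10 counts or more and, of the young, only young 4 did. Hp thus passed the filter on low counts through the old libraries, and its difference is given as a description. The groups of Hp did not overlap, and the log2 fold change was 1.36 ± 0.34. Its highest value at either age stood in old 2 and young 4, which were also high in liver genes. Without old 2, old 3 and young 4 the log2 fold change of Hp was 1.64 ± 0.49. Slc25a37, the mitochondrial iron importer mitoferrin 1, had 40.2 ± 3.33 CPM in old and 30.8 ± 2.45 CPM in young mice, and Alas2, the erythroid enzyme that starts haem synthesis, had 7.90 ± 1.12 and 5.55 ± 0.45 CPM. Their log2 fold changes were 0.38 ± 0.10 and 0.51 ± 0.18, and neither overlapped between the ages. The 5 erythroid markers tested all had a fitted log2 fold change above 0, as did 48.6% of all tested genes, and were at 0 in no library. Their sums were 96.3, 74.8, 58.8 and 119 CPM in old 1 to old 4. In young 1 to young 4 the sums were 64.1, 54.9, 76.5 and 43.8 CPM, so the ages overlapped. The part of these markers in the values of Slc25a37 and Alas2 was not tested.

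Alas1, the enzyme that starts haem synthesis outside red cells, had a log2 fold change of 0.32 ± 0.12 and Hfe, a membrane partner of the transferrin receptor, 0.44 ± 0.17. Steap4, a metalloreductase, had 1.604, 2.30, 1.57 and 6.63 CPM in old 1 to old 4. In young 1 to young 4 it had 0.620, 2.04, 0.511 and 0.140 CPM. Every old library held 10 counts or more of Steap4 and, of the young, only young 2 did. Steap4 thus passed the filter on low counts through the old libraries. In young mice 1 value lay below the level of 3 counts, and the log2 fold change of 1.84 ± 0.69 is a description, uncertain in size. It was 1.11 ± 0.60 without old 4, 2.97 ± 0.70 without young 2 and 0.28 ± 1.02 without old 3, young 3 and young 4. Without those 3 libraries the log2 fold change of Hfe was 0.20 ± 0.34. Below 0 were Hspa9, the mitochondrial chaperone that takes part in iron-sulphur cluster transfer, at -0.22 ± 0.07, and Keap1 at -0.21 ± 0.09. Keap1 restrains the antioxidant regulator Nfe2l2. The RNA of Nfe2l2, which was not among the genes named by smallest p, was at 0.29 ± 0.14 and overlapped between the ages. A link between the RNA levels of Keap1 and Nfe2l2 was not tested.

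Among the genes too low to be tested was Lcn2, a secreted protein that binds iron carriers of bacteria, singled out here after its values were seen. It had 5, 3, 4 and 73 counts in old 1 to old 4, and 0, 1, 1 and 0 counts in young 1 to young 4. Most of its counts thus came from old 4. The hepcidin genes Hamp and Hamp2, which encode the hormone that degrades ferroportin and its paralogue, had at most 3 and 4 counts in a library.

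**Figure D5:**
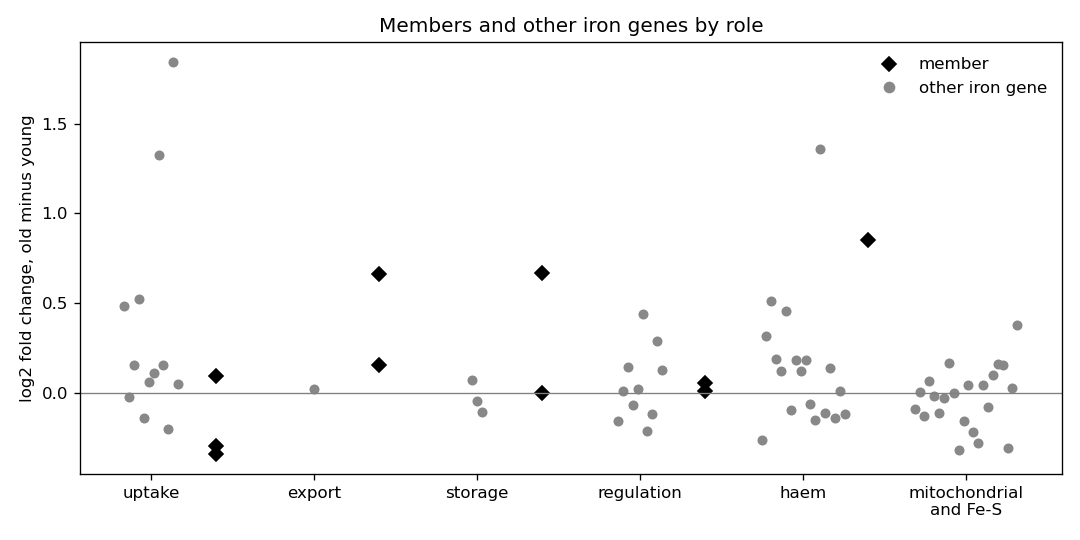
Log2 fold change, old minus young, of each tested other iron gene (grey circles) and of the members (black diamonds) by role. Most other iron genes lie near 0 at a median of 0.03, with Steap4 at 1.84 the highest in the uptake group and Hp at 1.36 in the haem group. Steap4 and Hp both passed the filter on low counts through the old libraries.

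The members differed in how much they varied among the 8 libraries. The SD of log2 CPM was 0.13 for Aco1, 0.15 for Slc11a2, 0.16 for Fth1 and for Ireb2, and 0.22 for Trf, and it was 0.31 for Slc40a1 and for Tfrc, 0.40 for Ftl1, 0.52 for Hmox1 and 0.56 for Cp. The median over all tested genes was 0.19, and 6 of the 10 members lay above it. These values include the difference between the ages. Within an age the SD was 0.20 for Ftl1, 0.13 for Trf, 0.33 for Hmox1 and 0.46 for Cp, and 5 of the 10 members lay above the median of 0.18 over all tested genes. None of the 45 pairs of members reached an absolute Pearson r of 0.9 over the 8 libraries. The pair most alike was Cp and Hmox1, with r = 0.87 and Spearman's rho = 0.86, and r = 0.84 without the 2 libraries farthest from the median of Cp. The libraries share age and cell makeup, so these values are a description with no test.

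For each member the gene with the highest r over the 8 libraries was looked up among 9138 genes whose mean log2 CPM was 4 or more. Members and unnamed gene models were left out of these. It was Foxo1 for Ftl1 (r = 0.97), March1 for Fth1 (r = 0.98), Btaf1 for Ireb2 (r = 0.99), Prdx3 for Cp (r = 0.96) and Sec11c for Hmox1 (r = 0.96). It was Chmp2b for Trf (r = 0.94), Pkia for Tfrc (r = 0.93), Ddx51 for Slc11a2 (r = 0.94), Mrpl40 for Aco1 (r = 0.90) and Ccdc157 for Slc40a1 (r = 0.90). Without the 2 libraries farthest from each member's median, r was 0.41 for Aco1 and Mrpl40, and 0.77 to 0.99 for the other 9. Each is the highest of 9138 values over 8 points.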

How the data were processed

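RNA-seq libraries of 8 mice were grouped by the titles and labels into 4 old and 4 young. The authors deposited raw gene counts, 1 table per library, per the file headers. Trimmomatic 0.39, STAR 2.7.5b and featureCounts are named in the submitters' processing notes, as is the build GRCm38 (mm10). Which annotation and strand setting were used, and how multi-mapping reads were handled, is not given in the sources used here. Spreadsheet dates replaced 24 gene names in 7 tables, so tables were joined by row.

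The members, lists, tests and alternatives were chosen with earlier results of these data known. Genes kept by edgeR's filterByExpr (minimum 10 counts, 14191 genes) were scaled with TMM and fitted with edgeR 4.0.16 in R 4.3.3 (quasi-likelihood, robust, newer dispersion method) on age and sex, with p-values adjusted by Benjamini-Hochberg over all genes and a threshold of 0.05. Each SE was derived from the fold change and its F statistic. Log2 CPM used a prior count of 2. DESeq2 1.42.0 and limma 3.58.1 were alternatives. The fits were tested on simulated data. Lengths, coordinates and transcripts are from GENCODE M21 (GRCm38). The rule for naming other iron genes took those past the threshold and the 8 with the smallest p. Heph, Ncoa4, Fbxl5, Nfe2l2, Lcn2, Hamp and Hamp2 were named outside that rule. Libraries within an age are biological replicates according to the design text, and every pair of libraries differed by more than sampling noise. Floors cover counting error only. One marker gene is not reported here.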

Additional observations from a re-analysis of the deposited data

Results flagged for a closer look

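In 56 groups of 4 mice, covering the members, the named iron genes and the marker sums, 6 held a library far from the other 3, where chance gives about 1 in 20. Among the members it was Ireb2, at 208.2 CPM in old 2 and 172 to 175 CPM in the other old mice. Among the other iron genes, Hp was at 4.03 CPM in old 2, against 2.52 to 2.73 CPM in the other old mice, and its value in young 4 was 1.96 CPM, with the remaining young mice at 0.775 to 0.941 CPM. Alas1 was at 31.3 CPM in old 1 and 35.2 to 35.8 CPM in the other old mice. Steap4 was at 6.63 CPM in old 4 and 1.57 to 2.30 CPM in the other old mice. Keap1 was at 80.1 CPM in old 1 and 65.9 to 67.6 CPM in the other old mice.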

How the results depend on the processing

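The alternatives were other tools, scalings and filters, each library left out, and 2 sets of 3 libraries left out. For age, Ftl1, Tfrc, Trf, Slc11a2, Cp and Hmox1 kept their sign under all that were run, while the values near 0 did not, with ranges of -0.09 to 0.08 for Fth1, -0.01 to 0.29 for Slc40a1, -0.13 to 0.09 for Aco1 and -0.01 to 0.12 for Ireb2. Of 14191 genes edgeR called 17 for age, DESeq2 125, limma-voom 1, and edgeR with older dispersions 26. Where libraries were left out the filter on low counts was run anew, so those counts are over other sets of genes. For age edgeR called 184 without old 2, old 3 and young 4, and 4 without old 3, young 3 and young 4. With 1 library left out edgeR called 0 to 63 (0 without young 3 or without young 4, 63 without old 2). For sex it called 6, against 40 without old 2, old 3 and young 4 and 4 to 46 with 1 library left out. The count of members called for age was 0, and 1, Ftl1, with DESeq2 and without old 2, old 3 and young 4. The count of other iron genes called was 0, and 1, Lcn2, without those 3 libraries, and 0 to 1 with 1 library left out (1 without old 2). Lcn2 did not pass the filter over all 8 libraries, and these calls rest on old 4, which held 73 of its counts, with at most 5 in any other library. No member was called for sex or for the interaction under any alternative run; the interaction could not be fitted without old 3, young 3 and young 4.

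Replicate numbers of old and young mice did not pair the samples, since the correlations of their deviations were 0.156, -0.222, -0.0480 and -0.252. With the replicate number as a block edgeR called 1 gene for age, and the log2 fold change by sex was -0.11 for Cp, 0.035 for Aco1 and -0.31 for Hmox1.

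Changes of sign were all in values that did not pass an adjusted p of 0.05. By sex, Hmox1 was -0.070 with DESeq2, -0.051 with limma-voom, -0.043 with older dispersions and -0.22 to 0.19 with 1 library left out. Aco1 was 0.0098 with limma-voom, 0.024 without old 3, young 3 and young 4 and -0.13 to 0.051 with 1 library left out. Without old 3, young 3 and young 4, which leaves no young female, Slc11a2 was -0.080 and Trf 0.16 by sex, and Keap1 was 0.0092 by age. Fth1 was 0.014 by sex without old 2, old 3 and young 4. With 1 library left out, the values by sex were -0.021 to 0.57 for Cp, -0.13 to 0.032 for Fth1 and -0.077 to 0.055 for Trf. The cause of these changes was not tested. Hmox1, with 11 to 35 counts, is the member whose depth limits its precision most.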
